A study of Mus musculus with 12 samples.

Results

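The Gimap genes (GTPases of immunity-associated proteins) form a cluster on mouse chromosome 6, and the 8 members with rows in the count files are described here, namely Gimap1, Gimap3, Gimap4, Gimap5, Gimap6, Gimap7, Gimap8 and Gimap9. They are 8 of the 23383 genes that could be joined over all 12 libraries. The cluster was chosen by the measured levels of Gimap1 and Gimap6, which separated the groups of the study. Values of these genes are therefore given as a description with no p-value. The other 6 share the locus of the chosen pair, so that their tests are not fully independent of that choice.

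RNA was sequenced from bone marrow cells of C57BL/6 mice carrying the genotype Cebpa +42kb enhancer -/-, called enhancer-null here, and of wild-type mice. The product of Cebpa is a transcription factor that blood progenitors need to become granulocytes and monocytes. CMP, the common myeloid progenitors, and LSK cells, the Kit-positive and Sca-1-positive fraction without mature lineage markers that holds the blood stem cells, were taken from each genotype. The 4 groups of 3 libraries were enhancer-null CMP (replicates 1, 2 and 7), wild-type CMP (1, 6 and 8), enhancer-null LSK (1, 2 and 7) and wild-type LSK (1, 6 and 8). The labels used here give neither age nor the number of animals behind a library, and no other allele or agent is named for any group. Unless said otherwise, values of a group are listed in the order of these replicate numbers.

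Gimap proteins are small GTP-binding proteins anchored to membranes of lymphocytes, where they act in cell survival and in the handling of autophagosomes and lysosomes. Mice and rats that lack a working Gimap5 lose T cells, and mice without Gimap1 lack most mature B and T cells. Gimap6 binds proteins of the Gabarap and LC3 group, which coat autophagosomes. Loss of Gimap5 in mice also impairs blood stem cells.

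Library totals ran from 6170491 to 49149674 gene counts. The unit of level is CPM, a count relative to the size of its library, with TMM scaling over the 12 libraries. Cebpa had 0, 3 and 0 counts in enhancer-null CMP, against 544, 270 and 463 counts in wild-type CMP. In LSK it had 1, 0 and 15 counts in enhancer-null libraries, against 226, 118 and 39 counts in wild-type libraries. The deletion label and the Cebpa counts therefore went together in every library. Ly6a, which encodes Sca-1, averaged 7.26 CPM in enhancer-null CMP and 4.81 CPM in wild-type CMP, against 178 CPM in enhancer-null LSK and 153 CPM in wild-type LSK. Kit was above 257 CPM in each library. Hlf, a stem cell transcription factor, averaged only 63.9 CPM in enhancer-null LSK and 438 CPM in wild-type LSK, so that the LSK cells of the 2 genotypes differed in a defining marker. From Xist and Y-linked genes, replicates 1 and 2 of enhancer-null and replicate 1 of wild type were male and the other replicates female, in CMP and in LSK.

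The cluster spans 123618 bases at chr6:48647234-48770851 of the mm10 build. From left to right the order is Gimap8, Gimap9, Gimap4, Gimap6, Gimap7, Gimap1, Gimap5 and Gimap3, with Gimap6 and Gimap3 on the minus strand and the other 6 on the plus strand. Gimap1 (ENSMUSG00000090019.5) lies at chr6:48739054-48743795, Gimap6 (ENSMUSG00000047867.11) at chr6:48701582-48708225, Gimap9 (ENSMUSG00000051124.6) at chr6:48676129-48679114 and Gimap5 (ENSMUSG00000043505.8) at chr6:48746197-48754210. A readthrough transcript, Gm28053, shares 13.2% of the exon bases of Gimap1, 7.83% of Gimap5 and 6.38% of Gimap7, and the antisense transcript Gimap1os shares 6.88% of those of Gimap1. Neither has a row in the files, and no source used here states whether counting used strand, so reads in these exons cannot be assigned with certainty. Of all windows of 75 bases in the members' transcripts, the read length, 3.32% of those of Gimap3 and 1.97% of those of Gimap5 were shared between these close paralogs, and the other 6 genes shared none within the cluster.

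The upstream sequences of the chosen pair and of Gimap9, the member whose LSK levels ran the other way, are shown because these genes lie near each other and yet differed in pattern. Each is the 250 bases before the RefSeq start (GRCm38.p6), at chr6:48738797-48739046 on the plus strand for Gimap1, chr6:48708245-48708494 on the minus strand for Gimap6 and chr6:48675885-48676134 on the plus strand for Gimap9. Capitals mark the ETS motif core CGGAAG and the RUNX motif core TGTGGT, read on either strand.
Gimap1: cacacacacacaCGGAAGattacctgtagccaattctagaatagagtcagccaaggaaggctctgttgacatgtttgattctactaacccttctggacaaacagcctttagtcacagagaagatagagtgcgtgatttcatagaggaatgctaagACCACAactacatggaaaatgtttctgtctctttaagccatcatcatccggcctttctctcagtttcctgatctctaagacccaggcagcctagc
Gimap6: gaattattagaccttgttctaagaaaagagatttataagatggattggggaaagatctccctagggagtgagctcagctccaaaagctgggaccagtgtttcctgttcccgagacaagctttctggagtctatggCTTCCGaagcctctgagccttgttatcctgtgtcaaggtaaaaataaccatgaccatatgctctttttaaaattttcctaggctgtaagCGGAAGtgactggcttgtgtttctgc
Gimap9: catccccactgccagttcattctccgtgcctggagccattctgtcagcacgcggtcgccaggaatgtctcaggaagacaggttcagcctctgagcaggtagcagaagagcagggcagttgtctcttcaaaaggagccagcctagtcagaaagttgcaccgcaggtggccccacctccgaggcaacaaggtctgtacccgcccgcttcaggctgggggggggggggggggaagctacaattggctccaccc

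In these windows Gimap1 held an ETS core 238 bases and a RUNX core 95 bases before its start, and Gimap6 held ETS cores at 26 and 115 bases. Gimap9 held neither. Over the 9 windows of the 8 genes, an ETS core was found for 3 genes (Gimap1, Gimap6 and Gimap8), and 13.6% of 32851 mouse promoter windows of this length hold one. A RUNX core was found for 3 genes (Gimap1, Gimap4 and Gimap7), against 14% of all windows. No match was found for the CEBP letters TTGCNNAA (9.56% of all windows), the GATA letters AGATAA (9.99%), the TCF/LEF letters CTTTGA (13.8%) or the IRF motif, which is GAAA, any 2 bases and GAAA again (2.98%). No matches of different motifs overlapped. These matches describe letters only.

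In wild-type cells Gimap5 fell in CMP against LSK, the chosen Gimap1 and Gimap6 were lower there in every library, and no other member passed the test with edgeR. Gimap1 had 33.0, 29.7 and 15.1 CPM in wild-type CMP, against 226, 268 and 193 CPM in wild-type LSK. Gimap6 had 57.9, 55.3 and 47.7 CPM in wild-type CMP, against 432, 349 and 340.4 CPM in wild-type LSK. The lowest LSK library was several times above the highest CMP library for both genes, and the fitted log2 fold changes of CMP over LSK were -3.09 (SE 0.34) for Gimap1 and -2.75 (SE 0.18) for Gimap6. In bulk RNA, fewer cells carrying a transcript and less of it per cell cannot be told apart, here or in any comparison that follows.

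Gimap5, needed for lymphocyte survival, fell in wild-type CMP. It had 5.52, 5.18 and 5.82 CPM in wild-type CMP, against 61.4, 41.6 and 89.8 CPM in wild-type LSK. The groups did not overlap, and the log2 fold change was -3.49 (SE 0.42, edgeR adjusted p = 0.00993 over 12027 genes). It was the 1 gene called among the 6 not used to choose the cluster, where 4.2% of all genes tested were called in either direction and 2.05% as lower. Without wild-type CMP replicate 1, 6 or 8 the adjusted p was 0.0506, 0.0595 and 0.0588, at log2 fold changes of -3.52, -3.48 and -3.53.

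Gimap8, the member with the longest exon sequence in this cluster, had 3.05, 1.89 and 0 CPM in wild-type CMP, against 68.6, 85.8 and 31.9 CPM in wild-type LSK. Its log2 fold change was -5.16 (SE 1.26, adjusted p = 0.0687 with edgeR and 1.28e-05 with DESeq2, which called 13.4% of all genes), so that its call depended on the tool. Gimap9 had 29.8, 20.5 and 24.8 CPM in wild-type CMP, against 42.3, 65.2 and 36.0 CPM in wild-type LSK. These libraries did not overlap either, and the log2 fold change was -0.88 (SE 0.38, adjusted p = 0.242), the size nearest to 0 among the 7 members tested. Gimap7 and Gimap4 had negative log2 fold changes of -2.70 (SE 1.60, adjusted p = 0.403) and -2.34 (SE 1.69, adjusted p = 0.496), with overlapping libraries. Leaving out a library in turn moved Gimap8 between -5.99 and -4.59, Gimap7 between -3.44 and -1.84 and Gimap4 between -4.26 and -1.63.

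All 7 members that passed the expression filter had a negative CMP over LSK fold change in wild type, and Gimap3 did not pass the filter. Over the 5 of them that were not used to choose the cluster the median was -2.70, against -0.01 over all genes tested, and 3 of these 5 had an unadjusted p under 0.05, against 20.5% of all genes. Every CMP library was below every LSK library for 3 of the 6 not used for the choice, namely Gimap5, Gimap8 and Gimap9, and for the chosen pair. That pattern held for 17.4% of all genes tested. Within males and within females, Gimap5 had log2 ratios of -3.36 and -3.46 and Gimap9 of -0.50 and -1.14. The male ratios rest on a single library of each group.

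**Figure D1:**
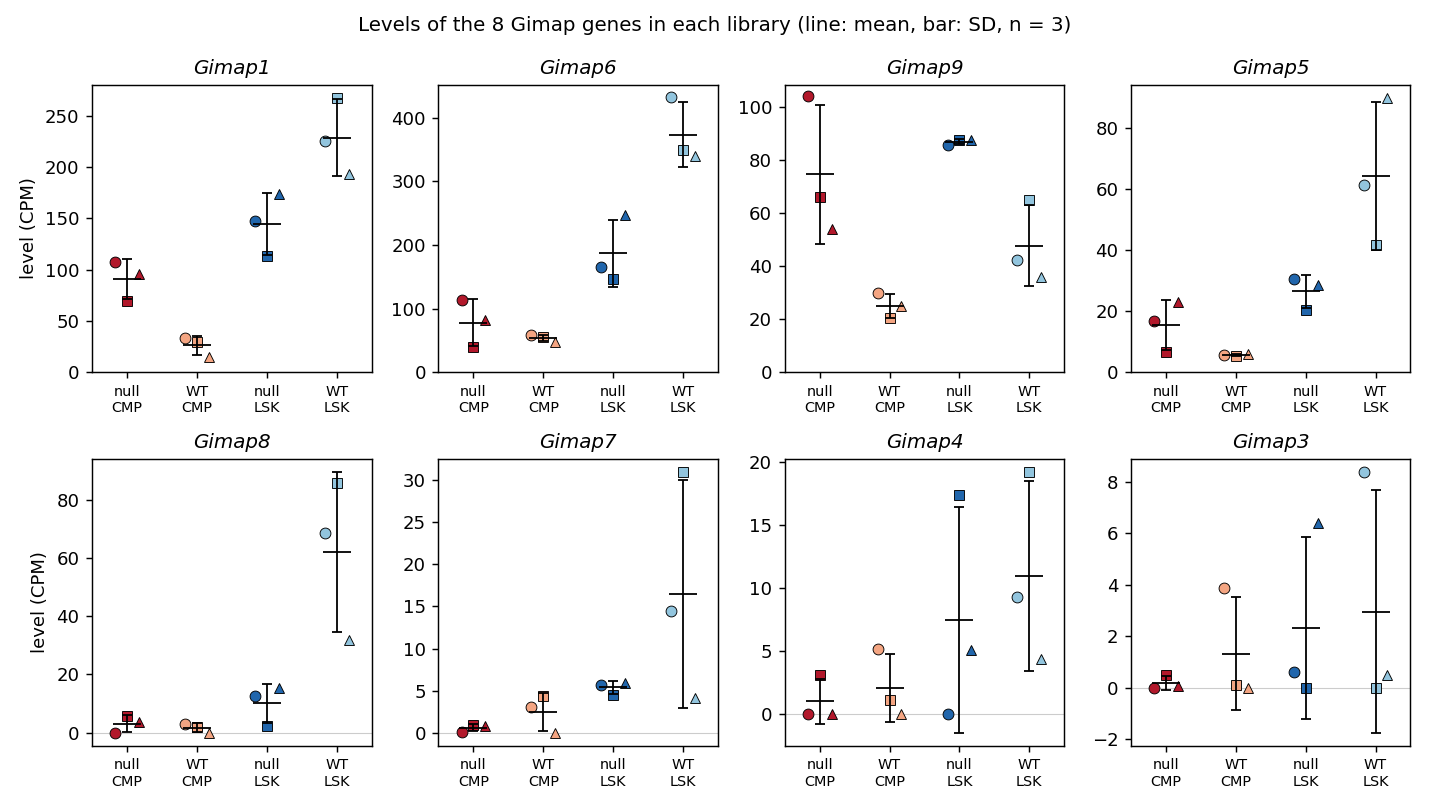
Level in CPM of each Gimap gene (vertical axis, own scale per gene) in every library of the 4 groups (null, enhancer-null; WT, wild type; symbols differ by replicate), with the mean as a line and the SD as a bar (n = 3). Gimap1 in enhancer-null CMP lies between wild-type CMP and both LSK groups, and Gimap9 is higher in enhancer-null than in wild-type LSK.

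In LSK no member open to a test was called with edgeR. Gimap1, Gimap6, Gimap5 and Gimap8 had lower values in every enhancer-null than in every wild-type library, Gimap9 had higher ones, and Gimap3, Gimap4 and Gimap7 overlapped. Gimap1 had 147, 113 and 174 CPM in enhancer-null LSK, against 226, 268 and 193 CPM in wild-type LSK, a log2 fold change of -0.64 (SE 0.22). Gimap6 had 166, 147 and 247 CPM in enhancer-null LSK, against 432, 349 and 340.4 CPM in wild-type LSK, a log2 fold change of -0.98 (SE 0.22). Neither gene's libraries overlapped between the genotypes, and the nearest libraries of Gimap1 lay close together (174 CPM in an enhancer-null and 193 CPM in a wild-type library).

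Gimap5 had 30.6, 20.3 and 28.6 CPM in enhancer-null LSK, against 61.4, 41.6 and 89.8 CPM in wild-type LSK. The highest enhancer-null library was below the lowest wild-type library, but the log2 fold change of -1.25 (SE 0.39) did not pass the threshold (adjusted p = 0.442). Gimap8 had 12.5, 2.41 and 15.3 CPM in enhancer-null LSK, against 68.6, 85.8 and 31.9 CPM in wild-type LSK. Its log2 fold change was -2.59 (SE 0.72, adjusted p = 0.386 with edgeR and 0.0178 with DESeq2).

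Gimap9 had 85.9, 87.6 and 87.8 CPM in enhancer-null LSK, against 42.3, 65.2 and 36.0 CPM in wild-type LSK. The enhancer-null libraries were nearly alike and all above the wild-type libraries, and the log2 fold change of 0.89 (SE 0.30) did not pass the threshold (adjusted p = 0.499). Gimap7 had 5.68, 4.50 and 5.96 CPM in enhancer-null LSK, against 14.4, 31.0 and 4.16 CPM in wild-type LSK, with overlap. Gimap7 acts as a GTPase, and the human protein stimulates GTP hydrolysis by another member of the family.

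Of the 6 members not used to choose the cluster, Gimap5 and Gimap8 were thus lower without overlap, a pattern of 10.4% of the 11619 genes tested, and Gimap9 was higher without overlap, a pattern of 8.65% of genes. None of Gimap4, Gimap5, Gimap7, Gimap8 and Gimap9 was called with edgeR at an adjusted p of 0.05, where 0.103% of all genes were called. An unadjusted p under 0.05 was found for 3 of these 5, against 7.91% of all genes. DESeq2 called 1, Gimap8, and 2.31% of all genes. The median log2 fold change over the 5 was -1.25, against -0.01 over all genes. Within males and within females, the log2 ratios were -0.79 and -0.40 for Gimap1 and -1.26 and -1.19 for Gimap5. They were -1.46 and -0.48 for Gimap6, -3.12 and -1.91 for Gimap8, and 1.03 and 0.79 for Gimap9. Each of these ratios had a single library in 1 of the groups.

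In CMP, Gimap1, Gimap9 and Gimap5 were higher in all enhancer-null libraries than in all wild-type libraries. Gimap1 had 107, 69.8 and 96.2 CPM in enhancer-null CMP, against 33.0, 29.7 and 15.1 CPM in wild-type CMP. That is a log2 fold change of 1.83 (SE 0.39), or 3.55-fold. The lowest enhancer-null library was 69.8 CPM and the highest wild-type library 33.0 CPM. Gimap9 had 104, 66.0 and 53.9 CPM in enhancer-null CMP, against 29.8, 20.5 and 24.8 CPM in wild-type CMP. Its log2 fold change was 1.59 (SE 0.37, adjusted p = 0.134 with edgeR), and it passed with DESeq2 (adjusted p = 0.00751) and in a single fit over all 12 libraries (adjusted p = 0.0359).

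Gimap5 had 16.8, 6.56 and 22.9 CPM in enhancer-null CMP, against 5.52, 5.18 and 5.82 CPM in wild-type CMP. The separation rested on a narrow gap, since enhancer-null replicate 2 was 6.56 CPM, and the log2 fold change was 1.5 (SE 0.90, adjusted p = 0.585). Gimap6 had 114, 38.7 and 81.6 CPM in enhancer-null CMP, against 57.9, 55.3 and 47.7 CPM in wild-type CMP. Enhancer-null replicate 2 was below all 3 wild-type libraries and the others above them, and the log2 fold change was 0.55 (SE 0.41). Without that library it was 0.87, and without enhancer-null replicate 1 it was 0.16.

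The low members did not separate the CMP groups. Gimap8 had 0, 5.88 and 3.58 CPM in enhancer-null CMP, against 3.05, 1.89 and 0 CPM in wild-type CMP. Gimap7 had 0.115, 0.881 and 0.79 CPM in enhancer-null CMP, against 3.02, 4.40 and 0 CPM in wild-type CMP. Gimap4, known to speed the death of T cells, had counts of 0, 63 and 0 in enhancer-null CMP, against 162, 20 and 0 in wild-type CMP. Gimap3, a close relative of Gimap5, had counts of 0, 10 and 1 in enhancer-null CMP, against 122, 2 and 0 in wild-type CMP. A count of 0 allows up to 3 counts, or up to 0.334 CPM in the shallowest of these 6 libraries, for counting error only. In enhancer-null CMP replicate 1, 3.58% of the genes that average at least 10 CPM over the study also had a count of 0, more than in any other library.

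Of the 6 members not used to choose the cluster, Gimap5 and Gimap9 were thus higher without overlap in CMP, a pattern of 10.8% of the 11722 genes tested. None of Gimap4, Gimap5, Gimap7, Gimap8 and Gimap9 was called with edgeR, where 0.589% of all genes were called. An unadjusted p under 0.05 was found for 1 of these 5, against 12.6% of all genes. DESeq2 called 1, Gimap9, and 5.37% of all genes. Of the 5, 3 were above and 2 below 0, with a median log2 fold change of 0.96 against -0.02 over all genes. Within males and within females, the log2 ratios were 1.41 and 2.08 for Gimap1 and 1.5 and 1.23 for Gimap9. They were 1.02 and 1.96 for Gimap5, 0.39 and 0.66 for Gimap6, and -0.045 and 1.50 for Gimap8. Gimap8 thus differed in sign between the sexes. Each of these ratios had a single library in 1 of the groups.

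**Figure D2:**
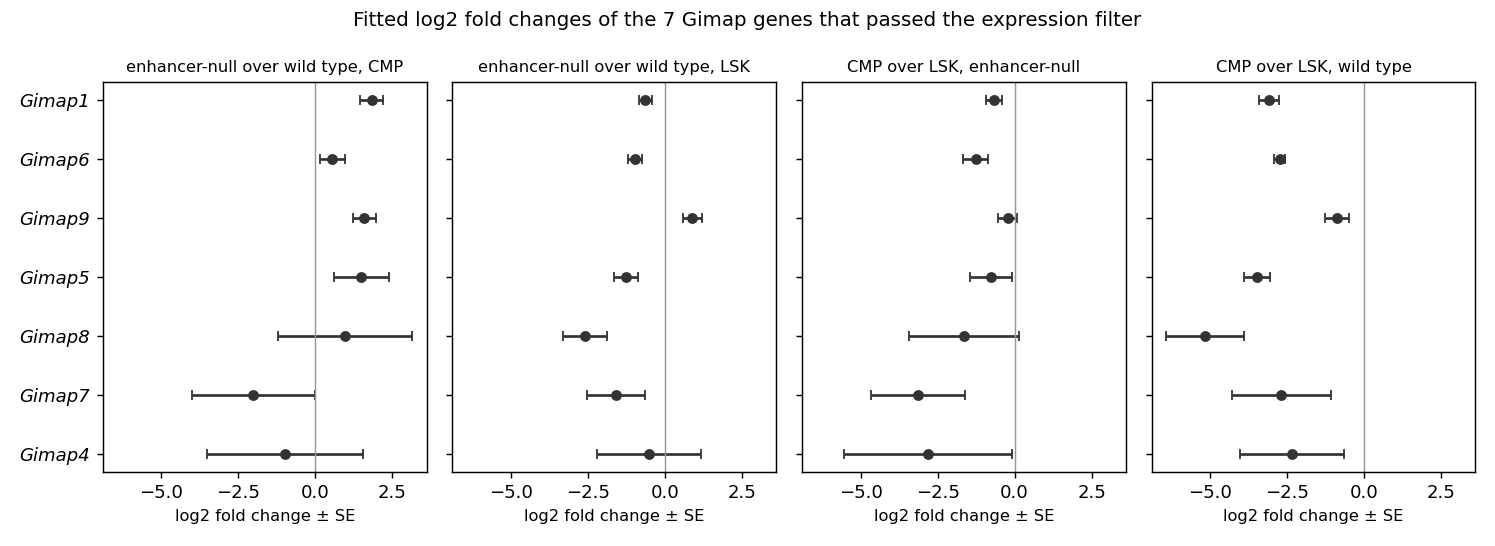
Fitted log2 fold change (point, horizontal axis) with its SE (bar) for the 7 Gimap genes that passed the expression filter, in the 4 pairwise comparisons of 3 against 3 libraries. Gimap1, Gimap6, Gimap5 and Gimap8 lie right of 0 for enhancer-null over wild type in CMP and left of 0 in LSK. The bar of Gimap8 crosses 0 in CMP. Gimap9 lies right of 0 in both cell types, and Gimap7 and Gimap4 lie left of 0 in both.

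Between the cell types of enhancer-null mice the fitted values lay nearer to 0 for Gimap1, Gimap6, Gimap9, Gimap5 and Gimap8 than between those of wild-type mice, and farther from 0 for Gimap7 and Gimap4. The test of that difference is the interaction given after this comparison. Gimap1 had 107, 69.8 and 96.2 CPM in enhancer-null CMP, against 147, 113 and 174 CPM in enhancer-null LSK, a log2 fold change of -0.67 (SE 0.27). Gimap6 had a log2 fold change of -1.26 (SE 0.41), and Gimap5 of -0.78 (SE 0.68, adjusted p = 0.928). The log2 fold change was -1.65 (SE 1.78, adjusted p = 0.943) for Gimap8, -3.13 (SE 1.52, adjusted p = 0.782) for Gimap7 and -2.81 (SE 2.71, adjusted p = 0.934) for Gimap4. Gimap9 averaged 74.7 ± 26.3 CPM in enhancer-null CMP and 87.1 ± 1.06 CPM in enhancer-null LSK (SD, n = 3 each), a log2 fold change of -0.22 (SE 0.31, adjusted p = 0.963). Of the 6 members not used to choose the cluster, Gimap7 was lower in every CMP library than in every LSK library, a pattern of 9.26% of the 11266 genes tested that the chosen pair also had. No gene of any kind was called here with edgeR (0% called), 780 genes or 6.92% had an unadjusted p under 0.05, DESeq2 called 205 or 1.82%, and none of the members open to a test was among those called by either tool.

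The difference of the genotype effect between CMP and LSK was tested as an interaction over all 12 libraries. The log2 difference, CMP effect minus LSK effect, was 2.50 (SE 0.43) for Gimap1 and 1.56 (SE 0.46) for Gimap6, both given as descriptions. Without enhancer-null CMP replicate 1 the value of Gimap6 was 1.09. For Gimap5 it was 2.78 (SE 0.78), which did not pass with edgeR (adjusted p = 0.303) and passed with DESeq2 (adjusted p = 0.0162), which called 1.51% of all genes. For Gimap8 it was 3.59 (SE 2.03, adjusted p = 0.743), and between 2.67 and 4.31 without 1 library in turn. For Gimap9 it was 0.73 (SE 0.48, adjusted p = 0.803). The other 3 were below 0, at -0.42 for Gimap4 (SE 3.13), -0.37 for Gimap7 (SE 2.07) and -2.40 for Gimap3 (SE 3.49), and each of these changed sign without 1 library or another. None of the 6 was called with edgeR, where 0.292% of 12684 genes were called, and 1 of the 6 had an unadjusted p under 0.05, against 7.64% of all genes. The interaction and the wild-type cell type comparison rest on the same wild-type libraries, so they are not separate evidence.

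Per kilobase of exon, the summed level of the 8 genes was 149 ± 39.1 CPM per kb in enhancer-null CMP and 59.1 ± 13.1 in wild-type CMP (SD, n = 3 each). It was 244 ± 38.9 CPM per kb in enhancer-null LSK and 374 ± 47.4 in wild-type LSK. The chosen Gimap1 and Gimap6 weigh heavily in these sums. Without that pair the sum was 84.1, 55.2 and 52.3 CPM per kb in enhancer-null CMP, against 31.8, 22.1 and 20.9 in wild-type CMP, which did not overlap. In LSK it was 85.8, 87.3 and 92.1 CPM per kb in enhancer-null libraries, against 100.2, 126 and 86.4 in wild-type libraries, which overlapped. Gimap1, Gimap6 and Gimap9 made up most of the sum in each group.

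The make-up of that sum differed between groups. In enhancer-null CMP the order by CPM per kb was Gimap1 (60.9), Gimap9 (54.0), Gimap6 (24.4) and Gimap5 (7.90), with only the first 2 overlapping in range. In wild-type CMP Gimap9 (18.1), Gimap1 (17.3) and Gimap6 (16.8) overlapped as neighbours, above Gimap5 (2.82). In enhancer-null LSK Gimap1 (96.8) stood above Gimap9 (62.9) without overlap, Gimap9 and Gimap6 (58.5) overlapped, and Gimap5 was at 13.5. In wild-type LSK Gimap1 (153) and Gimap6 (117) overlapped and stood above Gimap9 (34.5), which overlapped Gimap5 (32.9). The 4 remaining genes followed Gimap5 in each group, and most neighbours among them overlapped, with Gimap3 last in every group but wild-type CMP, where Gimap8 was last.

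The share of Gimap9 separated the genotypes in LSK. This share of the summed CPM per kb was 26.2% ± 4.04 in enhancer-null LSK and 9.11% ± 1.95 in wild-type LSK (SD, n = 3 each), and the lowest enhancer-null share of 22.2% was above the highest wild-type share of 11.4%. In CMP the share was 36.2% ± 7.73 in enhancer-null and 31.3% ± 7.11 in wild-type libraries, which overlapped. The ratio of Gimap9 to Gimap6 per kb was 1.19, 1.37 and 0.819 in enhancer-null LSK, against 0.225, 0.431 and 0.244 in wild-type LSK. In CMP it was 2.12, 3.93 and 1.52 in enhancer-null libraries, against 1.19, 0.855 and 1.20 in wild-type libraries. The enhancer-null ratios were higher without overlap in both cell types. The ratio of Gimap1 to Gimap6 per kb was 2.02, 3.84 and 2.51 in enhancer-null CMP, against 1.22, 1.14 and 0.674 in wild-type CMP. In LSK it was 1.89, 1.65 and 1.5 in enhancer-null libraries, against 1.11, 1.64 and 1.21 in wild-type libraries, with overlap. The chosen Gimap1 and Gimap6 make up much of the sum, and Gimap6 is the divisor of both ratios. These separations therefore draw on values that led to the choice of the cluster and are given as a description. A share of a sum shows unequal levels and not which gene differed.

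**Figure D3:**
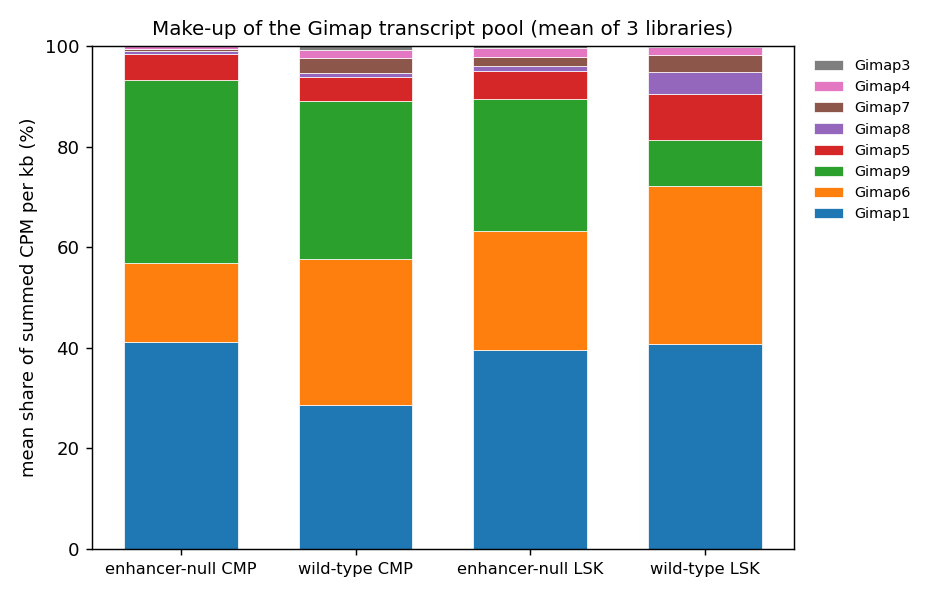
Mean share of each Gimap gene in the summed CPM per kb of the 8 genes (vertical axis, %, n = 3 libraries per group). The Gimap9 band is 26.2% in enhancer-null LSK and 9.11% in wild-type LSK, and 36.2% in enhancer-null CMP and 31.3% in wild-type CMP.

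Genes next to the cluster were examined for the same comparisons. Within 500 kb on either side the annotation lists 52 genes, of which 21 are in the count table and 13 passed the filter in each comparison. In wild-type CMP over LSK, 2 of the 13 fell, none rose and 12 were negative, with a median log2 fold change of -1.56. Of all genes tested there, edgeR called 4.2% in either direction and 2.05% as lower, and their median was -0.01. Tmem176b, a membrane protein gene of myeloid and dendritic cells, averaged 148 ± 39.1 CPM in wild-type CMP and 452 ± 78.1 CPM in wild-type LSK (SD, n = 3 each), a log2 fold change of -1.56 (SE 0.24, edgeR adjusted p = 0.0189). Krba1 averaged 5.39 ± 1.32 CPM in wild-type CMP and 58.5 ± 42.7 CPM in wild-type LSK, a log2 fold change of -3.40 (SE 0.64, adjusted p = 0.0320). The adjusted p of Tmem176b was 0.0792 without wild-type CMP replicate 6, 0.0687 without replicate 8 and 0.0513 without wild-type LSK replicate 1. That of Krba1 was 0.132, 0.115 and 0.129 without wild-type CMP replicate 1, 6 and 8, and 0.0664 without wild-type LSK replicate 8.

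For enhancer-null over wild type in CMP, 10 of the 13 neighbours were positive with a median of 0.88, and none was called. For the same contrast in LSK, 10 were negative with a median of -0.56, and none was called. Tmem176b had log2 fold changes of 1.21 (SE 0.31, adjusted p = 0.177) in CMP and -0.27 (SE 0.16, adjusted p = 0.705) in LSK. In the enhancer-null cell type comparison 7 of the 13 were negative with a median of -0.11, and in the interaction 11 were positive with a median of 1.45, with none called in either. These comparisons share libraries with each other. The medians over all genes tested were -0.02 for genotype in CMP and -0.01 in LSK. They were -0.01 between the enhancer-null cell types and 0.01 in the interaction. EdgeR called 0.589%, 0.103%, 0% and 0.292% of all genes in these 4 comparisons.

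**Figure D4:**
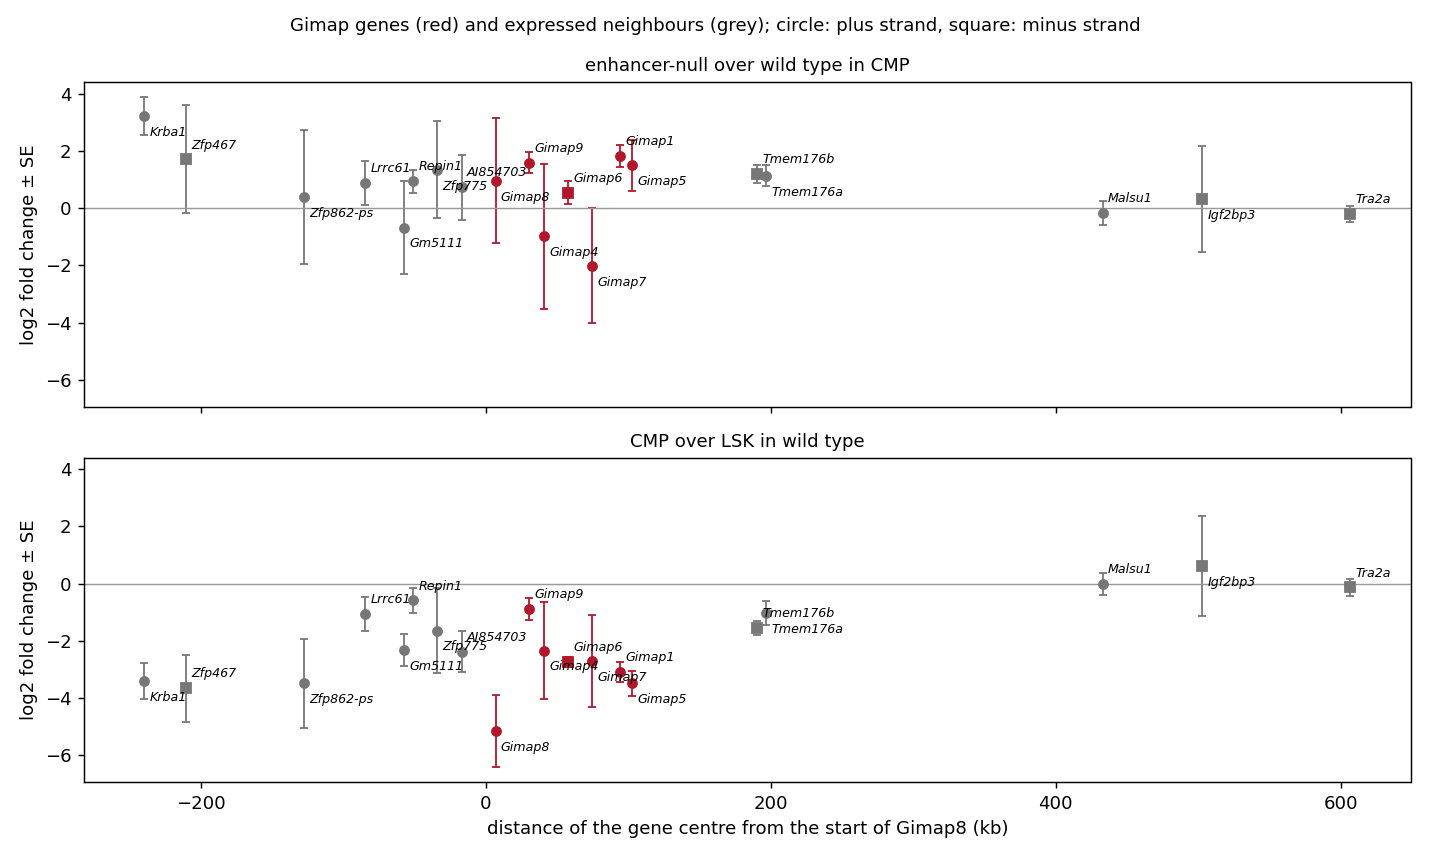
Fitted log2 fold change with its SE (vertical axis) of the tested Gimap genes (red) and tested neighbours within 500 kb (grey) by distance in kb from the start of Gimap8 (horizontal axis), for enhancer-null over wild type in CMP (top) and CMP over LSK in wild type (bottom). The genes left of the cluster and Tmem176a and Tmem176b right of it are mostly above 0 in the upper plot and below 0 in the lower plot.

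Few genes known to work with Gimap proteins passed the test. Of 11 partner genes of autophagosomes and of the Bcl2 family, none was called for enhancer-null over wild type in CMP (10 positive, median 0.40) or in LSK (6 positive, median 0.06), between the enhancer-null cell types (8 positive, median 0.05) or in the interaction (6 positive, median 0.28). Between wild-type CMP and LSK, 1 fell and none rose (median -0.37), where 4.2% of all genes were called. That gene was Map1lc3b, which encodes an LC3 protein of the autophagosome, at 210 ± 31.2 CPM in wild-type CMP and 377 ± 30.1 CPM in wild-type LSK (log2 fold change -0.79, SE 0.17, edgeR adjusted p = 0.0450). The call was lost without any of wild-type CMP replicates 1, 6 and 8 and wild-type LSK replicates 1 and 8, with adjusted p from 0.0937 to 0.146.

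Gimap genes are best known in T cells, and T lineage genes were read beside them. As background for these lists, edgeR called 0.589% of all genes for genotype in CMP and 0.103% in LSK. It called 4.2% between wild-type cell types and 0.292% in the interaction. Of 13 T cell receptor genes, 4 passed the filter in CMP and 1 rose in enhancer-null cells (median 2.44), none was called in LSK (8 tested, median 1.81), none between the enhancer-null cell types (7 tested, median -0.10), and 1 fell in wild-type CMP against LSK (6 tested, median -1.80). The gene was in both cases Lat, an adaptor of T cell receptor signalling. Lat averaged 80.4 ± 23.0 CPM in enhancer-null CMP and 12.1 ± 0.468 CPM in wild-type CMP (log2 fold change 2.74, SE 0.36, adjusted p = 0.0249). In LSK it averaged 86.2 ± 4.85 CPM in enhancer-null and 76.9 ± 19.3 CPM in wild-type libraries. In CMP the call was lost without enhancer-null replicate 7 or wild-type replicate 1, 6 or 8, with adjusted p from 0.0756 to 0.175. Against wild-type LSK (adjusted p = 0.0105) it was lost without wild-type CMP replicate 1, 6 or 8, with adjusted p from 0.0538 to 0.0611. In the interaction Lat had a log2 difference of 2.58 (SE 0.43, adjusted p = 0.0246), the 1 call among 8 tested T cell receptor genes (median -0.22). That call was lost without 9 of the 12 libraries in turn, with adjusted p up to 0.114.

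Of 8 T lineage regulators, 2 rose in enhancer-null CMP (Tcf7 and Tox, median 1.43) and 1 in enhancer-null LSK (Tcf7, 7 tested, median 0.52). Tcf7, a transcription factor of early T cell development, averaged 148 ± 17.5 CPM in enhancer-null CMP and 17.2 ± 3.32 CPM in wild-type CMP (log2 fold change 3.11, SE 0.28, adjusted p = 0.00848). In LSK it averaged 170.3 ± 70.8 CPM in enhancer-null and 0.179 ± 0.046 CPM in wild-type libraries (log2 fold change 9.85, SE 0.56, adjusted p = 0.00299). Tox, another regulator of that lineage, averaged 128 ± 27.5 CPM in enhancer-null CMP and 10.9 ± 4.55 CPM in wild-type CMP (log2 fold change 3.56, SE 0.40, adjusted p = 0.0142). In CMP, Tcf7 lost its call without wild-type replicate 1, 6 or 8 (adjusted p 0.0523, 0.0548 and 0.0782) and Tox without wild-type replicate 1 or 6 (0.0843 and 0.104). Between the cell types, none was called in enhancer-null mice (median -0.12) and Tcf7 rose in wild-type CMP (median -0.50, adjusted p = 0.0176, and from 0.0556 to 0.125 without wild-type CMP replicate 1, 6 or 8 or wild-type LSK replicate 1 or 8). In the interaction Tcf7 had a log2 difference of -6.70 (SE 0.55, adjusted p = 0.000218), and the median of the 8 was -0.09. That value is a smaller rise in CMP than in LSK and not a fall. It rests on wild-type LSK libraries with 7, 3 and 2 counts of Tcf7. Of 10 lymphoid priming genes, none was called for genotype in CMP or in LSK. Their median was -0.52 in CMP and 0.22 in LSK for genotype.

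Markers of mature cells that express Gimap genes were summed in each library, and the T cell receptor and NK cell sums were higher in every enhancer-null than in every wild-type library within CMP and within LSK. The summed T cell receptor list ran from 116 to 306 CPM in enhancer-null CMP and from 21.2 to 48.7 CPM in wild-type CMP, and from 202 to 231 CPM in enhancer-null LSK and from 136 to 182 CPM in wild-type LSK. Lck and Lat made up a large part of it. Cd3e, the defining T cell marker, had 0 counts in each enhancer-null CMP library and 44, 0 and 0 counts in wild-type CMP. It had 0, 0 and 1 counts in enhancer-null LSK and 6, 0 and 0 counts in wild-type LSK. Cd3g, another part of the receptor complex, had 0, 14 and 0 counts in enhancer-null CMP and 2, 1 and 0 counts in wild-type CMP. It had 0, 0 and 22 counts in enhancer-null LSK and 25, 0 and 0 counts in wild-type LSK. Lck, a kinase of receptor signalling, averaged 90.2 CPM in enhancer-null CMP and 20.8 CPM in wild-type CMP. The B cell list summed to between 145.4 and 278 CPM in enhancer-null CMP, 109.7 and 228 CPM in wild-type CMP, 185 and 216 CPM in enhancer-null LSK and 178 and 218 CPM in wild-type LSK. Of it, Pax5 had 1 count in wild-type CMP replicate 6 and 0 in every other library. Wild-type CMP replicate 1 stood out with 21.2 CPM of Cd79a. The NK cell list summed to between 198 and 339 CPM in enhancer-null CMP and 67.9 and 138 CPM in wild-type CMP, and to between 265 and 306 CPM in enhancer-null LSK and 78.1 and 166 CPM in wild-type LSK. Of its 8 genes, 2 passed the filter for genotype in CMP and 3 in LSK. Ncr1, an NK cell marker of this list, had 0 or 1 count in each library. Tbx21 was at 0 in both enhancer-null groups, and Eomes was at 0 in both LSK groups. The endothelial list, read because blood vessel cells also express Gimap genes, summed to between 195 and 417 CPM in enhancer-null CMP, 194 and 222 CPM in wild-type CMP, 328 and 378 CPM in enhancer-null LSK and 298 and 428 CPM in wild-type LSK, with Cdh5 at 0 to 8 counts in every library. The B cell, NK cell and endothelial genes named at or near 0 added little to the sums of those libraries. The genes that carried these sums, and the NK cell difference between genotypes, are not reported here. None of the B cell, NK cell and endothelial genes was called in any comparison. Beyond these values, the part of such cells in the Gimap levels was not tested.

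Markers of stem cells and of blood lineages were read in the same way. As background, edgeR called 4.2% of all genes between wild-type cell types, 2.05% of them as lower in CMP. For genotype it called 0.589% in CMP and 0.103% in LSK. Stem cell markers fell in wild-type CMP against LSK for 8 of 12 (median -4.01), with Hlf at -5.07 (SE 0.19, adjusted p = 8.41e-05) and Ly6a at -4.93 (SE 0.33, adjusted p = 0.00146). Between the enhancer-null cell types none of 10 tested passed, with a median of -3.14. For genotype their medians were -0.53 in CMP, where 1 of 11 rose, and -1.29 in LSK, where 1 of 12 fell. Myeloid progenitor markers had a median of -2.18 for genotype in CMP, where 2 of 9 fell (Irf8 and Ctsg) and none rose. In LSK 1 of 9 rose (Mpo) and the median was -0.26. In wild-type CMP against LSK 5 of 9 rose (median 2.13), with Mpo at 3.67 (SE 0.16, adjusted p = 0.000205). Late neutrophil markers were never called, with medians of -5.88 in CMP and -5.25 in LSK for genotype, and their sum reached 2099 CPM in wild-type CMP replicate 1 and 1346 CPM in wild-type LSK replicate 1. Of the mast cell and basophil markers 1 rose for genotype in CMP and in LSK, in each case Cpa3, with medians of 0.92 and 0.22. Of the erythroid and megakaryocyte markers none was called for genotype in CMP (median -0.45), 1 of 7 rose in LSK (Itga2b, median -0.54) and 3 of 9 rose in wild-type CMP against LSK (median 4.26). Irf8, Hlf, Ly6a and, between wild-type cell types, Mpo kept their calls without any single library. For genotype in CMP, Ctsg lost its call without wild-type replicate 1, 6 or 8 (adjusted p up to 0.0785) and Cpa3 without wild-type replicate 8 (0.0526). In LSK, Mpo, Cpa3 and Itga2b lost theirs without enhancer-null replicate 1 or 2 or wild-type replicate 1 or 8, with adjusted p up to 0.274, Mpo also without wild-type replicate 6 and Itga2b also without enhancer-null replicate 7. Between wild-type cell types, 4 of the 8 stem cell calls were lost without wild-type CMP replicate 6, and 2 of the 5 myeloid calls and all 3 erythroid calls without wild-type CMP replicate 1, 6 or 8. The part of these markers in the Gimap levels was not tested.

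The genes whose levels followed the chosen pair most closely over the 12 libraries were ranked by Pearson r of log2(CPM + 0.5) among 10180 genes, as a description. The libraries share 4 groups, so that any gene with the same group order scores high. For Gimap6 they were Nr4a1 (r = 0.956, Spearman rho 0.93), AW112010 (0.954, rho 0.951), Samsn1 (0.948, rho 0.951), Tspan13 (0.943, rho 0.909) and Epsti1 (0.933, rho 0.874). Nr4a1, an immediate-early nuclear receptor gene, averaged 112 CPM in enhancer-null CMP and 51.2 CPM in wild-type CMP, and 324 CPM in enhancer-null LSK and 522 CPM in wild-type LSK. For Gimap1 they were Ctla2b (r = 0.983, rho 0.958), Lax1 (0.976, rho 0.965), Ctla2a (0.968, rho 0.965), Rgs1 (0.965, rho 0.916) and Anxa4 (0.963, rho 0.846). Ctla2b, of a family of cysteine protease inhibitors, averaged 48.1 CPM in enhancer-null CMP and 5.70 CPM in wild-type CMP, and 74.2 CPM in enhancer-null LSK and 160.2 CPM in wild-type LSK. Lax1, a membrane adaptor of lymphocytes, averaged 44.3 CPM in enhancer-null CMP and 5.04 CPM in wild-type CMP, and 64.8 CPM in enhancer-null LSK and 105 CPM in wild-type LSK. Within the cluster, r with Gimap6 was 0.937 for Gimap5, 0.872 for Gimap1, 0.766 for Gimap8, 0.72 for Gimap7, 0.496 for Gimap4, 0.344 for Gimap3 and 0.337 for Gimap9. Gimap9 and Gimap3 were the members least like Gimap6 by this measure, with nearly the same r. Gimap3 was at or near 0 counts in several libraries. Gimap9 had r = 0.639 with Gimap1.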

How the data were processed

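RNA from small numbers of sorted CMP and LSK cells was amplified before library preparation and read from both ends at 75 bp, per the labels' protocols. The authors deposited 1 table of raw, whole-number counts per library, listed by gene symbol. The submitters' processing notes name TopHat2 2.0.4, TopHat, Bowtie and HTSeq and the mm10 build, while annotation, counting mode and strand setting are not stated there. Rows that name no gene held 37.2% to 46.9% of the counts of a library and were left out. The file of wild-type CMP replicate 6 lists 23456 symbols and the other files 24420, so that it may have been counted with another annotation. Files were joined on 22779 identical symbols and 604 linked through older names in the RefSeq table. Positions and exon lengths come from GENCODE M21 and sequences from RefSeq (GRCm38.p6).

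Tests used edgeR 4.0.16 in R 4.3.3 (quasi-likelihood, robust, TMM, default filter with a minimum count of 10), both directions at once, and p-values were adjusted by Benjamini-Hochberg over all genes at 0.05, on the 6 libraries compared or, for the interaction, all 12. The SE is the log2 fold change divided by the root of F. Replicates differed by a chi-square of 43.1 to 183 per degree of freedom and no files were identical, so each library counted as 1 replicate. The labels do not say that replicates are separate animals, so p-values measure the spread between libraries. The code was tested on simulated counts. Alternatives were DESeq2 1.42.0, other scaling, other filters, a sex term, a single fit over all libraries, a replicate block and leaving out each library. The members and gene lists were chosen with earlier results of these data known. Named genes were the 8 members, Cebpa, at most 3 neighbours, at most 2 called members of each list, and the 5 genes most like Gimap6 and Gimap1. Marker genes given to check the labels, Lck, Cd3g, and list genes given beside marker sums were named outside that rule, after their values were seen. A few list genes are not reported here.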

Additional observations from a re-analysis of the deposited data

Results flagged for a closer look

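Gimap1 was flagged because the genotypes separated in opposite directions in the cell types, but it was chosen because it separated the groups. All 3 enhancer-null CMP libraries were above all 3 wild-type CMP libraries, and all 3 enhancer-null LSK libraries were below all 3 wild-type LSK libraries. The genotype effect in CMP minus that in LSK was 2.50 on the log2 scale. This difference was not tested, because Gimap1 was among the genes that led to the choice of the cluster.

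Gimap5 was flagged for the same pattern, with a difference of 2.78 on the log2 scale. The share of all genes with this pattern was not counted. The test of the difference over all 12 libraries did not pass with edgeR (adjusted p = 0.303) and passed with DESeq2 (adjusted p = 0.0162), with a range of 0.0162 to 0.619 over all alternatives. DESeq2 was the 1 alternative of 18 that passed. In CMP the separation is narrow, since the lowest enhancer-null library had 6.56 CPM and the highest wild-type library 5.82 CPM.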

How the results depend on the processing

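Counts of called genes moved with the setting. For genotype in CMP (69), DESeq2 called 629, no filter 270, a sex term 31 and a single fit over 12 libraries 232, and leaving out a library gave 7 to 92. For genotype in LSK (12) these were 268, 39, 3 and 26, and 1 to 21. Between enhancer-null cell types (0), DESeq2 called 205, no filter 9 and the single fit 37, and leaving out a library gave 0 to 0. Between wild-type cell types (505), DESeq2 called 1609 and a sex term 285, and leaving out a library gave 54 to 880. In the interaction (37), DESeq2 called 191, no filter 68 and a minimum count of 30 gave 24, and leaving out a library gave 12 to 107. The cause was not tested.

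Of Gimap3, Gimap4, Gimap5, Gimap7, Gimap8 and Gimap9, DESeq2 called 1 for genotype in CMP (Gimap9, also 1 in the single fit), 1 in LSK (Gimap8), 2 between wild-type cell types (Gimap5 and Gimap8) and 1 in the interaction (Gimap5). Leaving out a library gave 0 to 1 called between wild-type cell types and 0 to 0 elsewhere.

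Signs turned only for low members. The log2 value of Gimap4 was 0.86 for genotype in CMP without wild-type CMP replicate 1, and 0.065 and 0.16 in LSK without enhancer-null LSK replicate 1 and wild-type LSK replicate 6. In the interaction Gimap4 was 0.039, 0.16, 1.40 and 1.14 without enhancer-null CMP replicate 1 or 7, wild-type CMP replicate 1 or enhancer-null LSK replicate 2. Gimap3 was 1.94 and 0.45 without wild-type CMP replicate 1 or enhancer-null LSK replicate 7, and Gimap7 was 0.34 without wild-type CMP replicate 6. All 64 group means in CPM moved by less than 1 SD under RLE or total-count scaling.

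Same-numbered CMP and LSK libraries did not deviate together (r from -0.107 to 0.162), so the numbers were not taken as pairs in the main tests. The sexes read from the libraries did match by number, and a low r cannot exclude that such libraries came from the same animals. With the replicate number as a block, 132 genes were called between wild-type cell types and 7 in the interaction, where Gimap7 was 0.33. Gimap4 and Gimap3 had 0 counts in several libraries, and counting error is largest for such genes. Leaving out a library moved Gimap4 between -8.22 and 0.86 in CMP, -2.09 and 0.16 in LSK and -7.96 and 1.40 in the interaction, and in the interaction Gimap7 between -1.22 and 0.34 and Gimap3 between -5.92 and 1.94.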
